A study of Mus musculus with 6 samples.

Results

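The genes described here encode the machinery that docks insulin granules at the plasma membrane and fuses them with it. They are 37 genes chosen by name, namely the SNARE proteins with their assembly and disassembly factors, the synaptotagmins, and the small GTPases Rab3 and Rab27 with their effectors. All 37 were found in the table of 55487 genes, each under 1 identifier, and all 37 had enough counts to be among the 21141 genes tested. They were measured in MIN6, an insulin-secreting cell line of the mouse that stands in for beta cells of the pancreas. The 3 PTHrP libraries come from cells transiently transfected with full-length parathyroid hormone-related protein, a secreted peptide encoded by Pthlh, and the 3 DsRed libraries from cells given the DsRed vector without it. Both groups went through the same lipid transfection, and RNA was taken at most 3 days later. An untransfected library was not analysed here, and the share of cells that took up either plasmid is not given in the sources used here.

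In regulated secretion, a Rab GTPase and its effectors bring the granule to the membrane, and a priming step then readies it for release. The granule SNARE, a VAMP, zips together with a syntaxin and SNAP-25 or SNAP-23 on the target membrane, helped by Munc18 and Munc13 proteins and watched over by complexins. Calcium entering after glucose stimulation is read by synaptotagmins, which trigger fusion, and the ATPase NSF with its adaptor alpha-SNAP then takes the spent SNARE complexes apart. The receptor for PTHrP signals largely through cyclic AMP, a messenger known in beta cells to strengthen this same exocytosis step. The series title places the study's question in stress of the endoplasmic reticulum, and how the exocytosis genes stand beside it is described here.

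The libraries held 84427033 to 94613684 counts. Pthlh had 697, 553 and 797 counts in PTHrP and 0, 4 and 8 in DsRed, which goes with the labels. Summed over 10 beta cell markers the level was 49000 to 55483 CPM (a gene's share of its library's counts, scaled with TMM factors) in PTHrP and 50460 to 62471 in DsRed. Summed markers of delta, PP, acinar and duct cells came to less than 1 CPM in every library, those of fibroblasts to 4.25 to 4.64 CPM in PTHrP and 4.51 to 5.26 in DsRed. Alpha cell markers, mostly Ttr and Gcg, came to 324 to 412 CPM in PTHrP and 357 to 394 in DsRed. Neuron markers, nearly all of it Syn1, a synaptic vesicle gene, came to 171 to 204 CPM in PTHrP and 199 to 204 in DsRed. PTHrP replicate 2 stood apart from the other libraries over all genes tested, and the exocytosis genes it touches are described below. In bulk RNA, fewer cells of a kind and less RNA per cell cannot be told apart.

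No exocytosis gene passed the test between PTHrP and DsRed. The test was edgeR's quasi-likelihood test with Benjamini-Hochberg adjustment over all genes tested and a threshold of 0.05, and 0.0426% of all genes tested passed it. The smallest adjusted p of the 37 was 0.427, that of Syt9. An unadjusted p under 0.05 in this edgeR test was found for 4 of the 37, which is 10.8% against 8.90% of all genes tested. Of the 4, 3 had positive values, or 8.11% against 4.92% of all, and 1 of the 37 had a negative value, against 3.98%. DESeq2 and limma-voom gave 4 of the 37 as well, but the matching shares of all genes in those fits are not given here. The PTHrP and DsRed libraries did not overlap for 5 of the 37, which is 13.5% against 16.3% of all genes tested. PTHrP was the higher group for 4 of them, or 10.8% against 8.45% of all, and the lower group for 1 of the 37, against 7.88%. At a mean log2 CPM of 1 or more, 12.1% of 33 exocytosis genes and 12.6% of all genes had an unadjusted p under 0.05. The groups did not overlap for 15.2% and 20.3% of them in turn. The shares in both directions together lie near the background. The median log2 fold change, PTHrP over DsRed, was -0.02 over the 37 and -0.01 over all genes tested, with 16 positive and 21 negative values.

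The measurements were tight enough to bound most of these genes, as far as the spread between these libraries goes. Nothing says that the libraries were separate cultures, so that spread could be technical. The 95% interval of the log2 fold change lay entirely between -0.5 and 0.5 for 31 of the 37, which is 83.8% against 45.6% of all genes tested. Where the mean log2 CPM was 1 or more, it did so for 31 of 33 exocytosis genes, or 93.9%, and for 81.4% of all. The 6 genes with wider intervals were Cplx2 and Cadps2, whose replicates differed most in PTHrP replicate 2, and Doc2b, Rab27b, Rims1 and Sytl2, which were under 1 CPM in the mean of both groups. For each of those 4 the interval reached past -1 or 1 on the log2 scale, so a sizeable difference was not bounded.

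**Figure D1:**
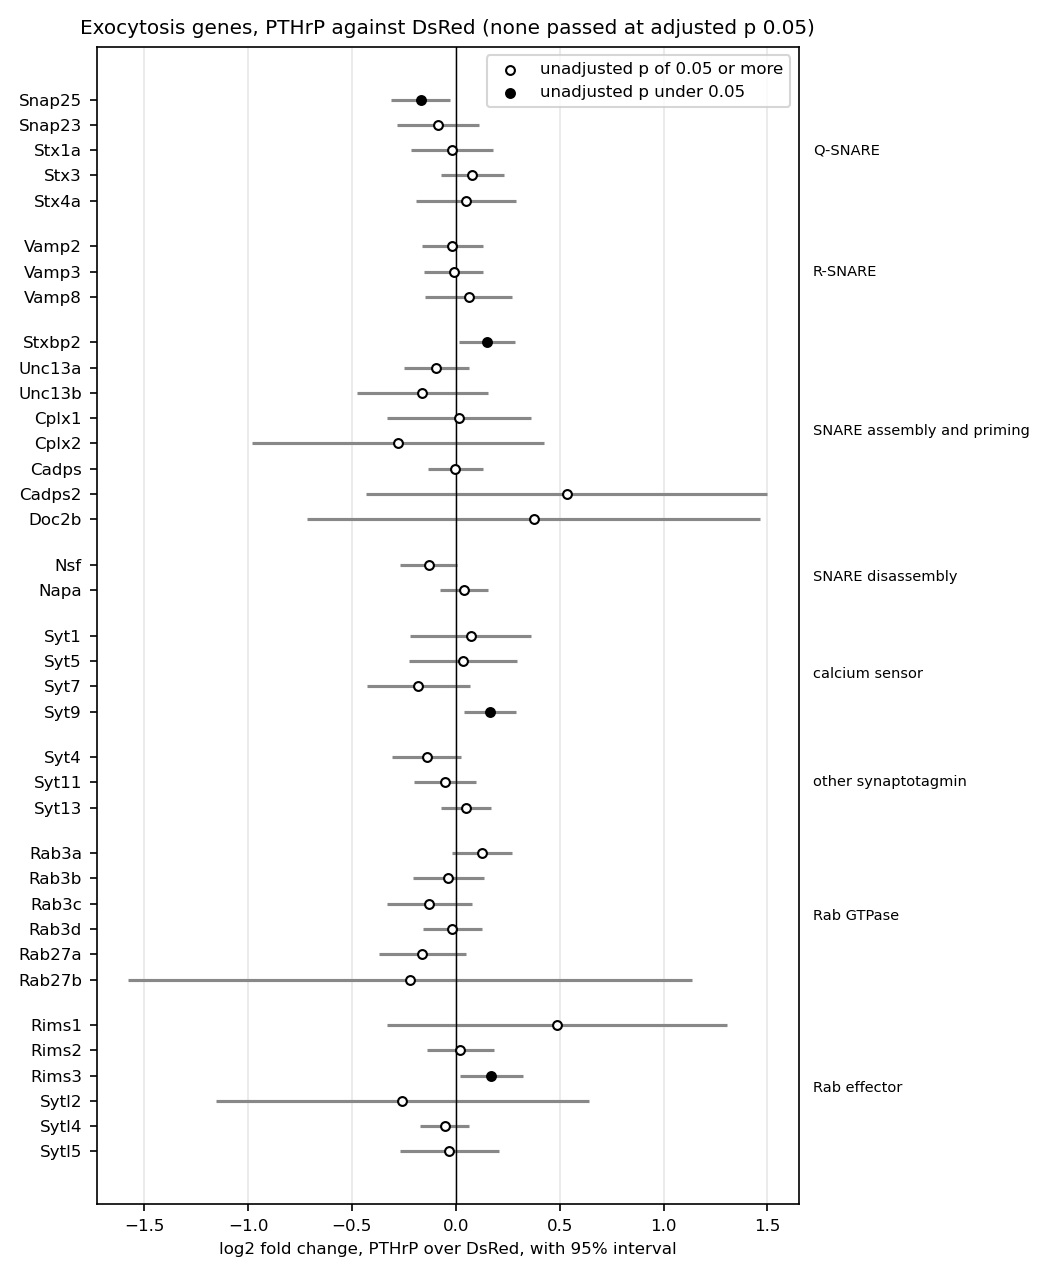
Log2 fold change of each exocytosis gene, PTHrP over DsRed (x axis), with its 95% interval as a line and genes grouped by role down the page. Filled points mark the 4 genes with an unadjusted p under 0.05, Snap25 to the left of 0 and Stxbp2, Syt9 and Rims3 to the right, and 31 of the 37 intervals lie between -0.5 and 0.5.

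The promoter sequence around the RefSeq start of a pair of these genes is shown. The reason is that the PTHrP receptor is known to signal through cyclic AMP, whose transcription factor CREB binds the palindrome TGACGTCA. That receptor's own gene, Pth1r, had 14, 16 and 10 counts in PTHrP and 28, 27 and 13 in DsRed, near the floor of these libraries at 0.105 to 0.188 CPM in PTHrP and 0.142 to 0.324 CPM in DsRed. RefSeq promoters (build GRCm38.p6, 300 bases around the RefSeq start) were at hand for 26 of the 37. Napa alone held TGACGTCA, 1 of 26 or 3.85%, against 2.03% of the 27025 genes in the same table. Those 27025 genes were not limited to the genes tested here, whereas the 26 were all tested. The motif shares therefore compare unlike sets of genes. The E-box CACGTG, searched like the others on both strands, was found in 6 of 26, in Napa, Nsf, Stxbp2, Rab27a, Unc13b and Cadps2, or 23.1% against 8.09% of all. The TATA box TATAAA was in 2 of 26 (Rab3b and Stx3), or 7.69% against 15.7%. The cyclic AMP element variant TGACGCAA matched in 0 of 26, against 0.562% of all genes. The core of the neuronal silencer element RE1 and the ER stress response element also matched in 0 of 26, against 0.152% and 0.137% of all genes. None of these motifs overlaps another in the promoters printed here, and a match is a description of letters and not evidence of binding. Napa lies at chr7:16098330-16098629 on the plus strand and Stxbp2, the gene with an E-box whose groups did not overlap, at chr8:3630859-3631158 on the plus strand, and capitals mark CACGTG and TGACGTCA.
Napa: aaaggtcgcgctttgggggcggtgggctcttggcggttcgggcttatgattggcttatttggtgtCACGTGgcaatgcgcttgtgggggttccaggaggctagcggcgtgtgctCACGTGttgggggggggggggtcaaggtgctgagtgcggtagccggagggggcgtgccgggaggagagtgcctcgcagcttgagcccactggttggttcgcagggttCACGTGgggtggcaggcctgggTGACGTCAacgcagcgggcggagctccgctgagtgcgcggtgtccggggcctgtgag
Stxbp2: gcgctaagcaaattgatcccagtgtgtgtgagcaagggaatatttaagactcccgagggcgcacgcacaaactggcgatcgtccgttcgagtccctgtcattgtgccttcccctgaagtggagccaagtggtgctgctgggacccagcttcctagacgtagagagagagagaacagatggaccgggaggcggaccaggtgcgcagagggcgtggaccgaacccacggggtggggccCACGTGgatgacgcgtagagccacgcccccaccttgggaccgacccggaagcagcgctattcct

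In Napa the cyclic AMP element begins 7 bases before the RefSeq start used for these promoters. E-boxes begin 185, 136 and 29 bases before that start. The Stxbp2 E-box begins 14 bases before its RefSeq start. GENCODE M21 puts the gene starts further upstream, at 16098458 for Napa and 3630955 for Stxbp2. By those starts the cyclic AMP element, the Napa E-box nearest to it and the Stxbp2 E-box lie inside the gene.

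**Figure D2:**
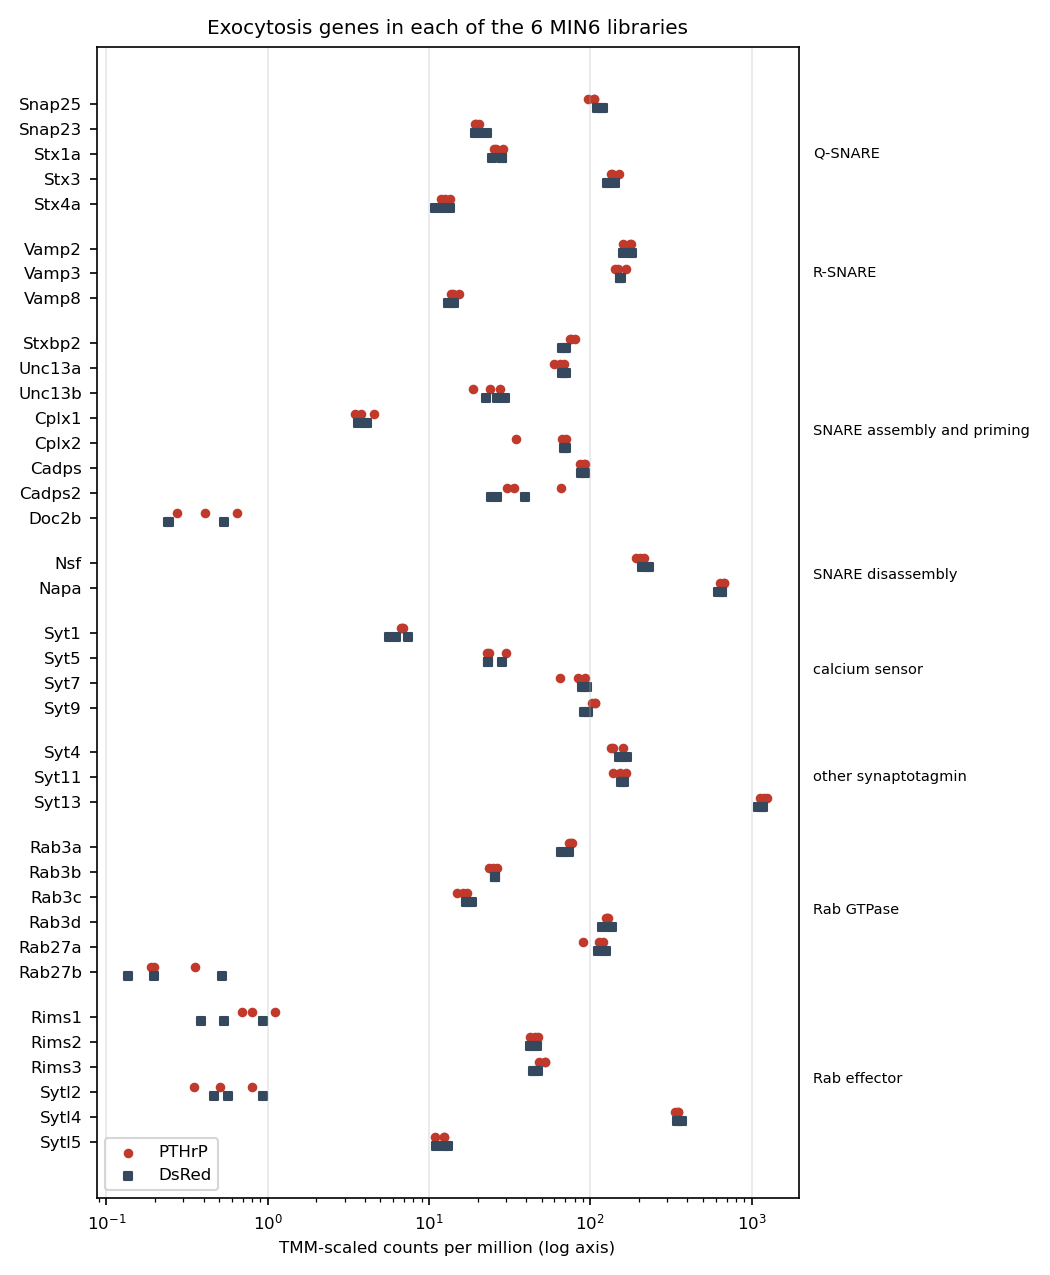
Level of each exocytosis gene in each library, in TMM-scaled CPM on a log axis, with PTHrP libraries as circles above DsRed libraries as squares. Syt13 and Napa lie at the right and Rab27b, Doc2b, Sytl2 and Rims1 at the left, and for most genes the 6 libraries lie close together.

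Among the SNAREs of the plasma membrane, Snap25 was the member whose groups stood apart. SNAP-25 gives the fusion complex a pair of its helices. Snap25 had 106, 96.4 and 106 CPM in PTHrP, against 116, 121 and 110 CPM in DsRed. Every PTHrP library lay below every DsRed library. Its log2 fold change was -0.17 (SE 0.06, 95% interval -0.31 to -0.03), with an unadjusted p of 0.0242 in edgeR's quasi-likelihood fit and an adjusted p of 0.472. The value ranged from -0.20 to -0.12 over 15 alternative treatments of the data, with an unadjusted p under 0.05 in 13 of them, and the adjusted p ranged from 0.302 to 0.960. Its widely expressed relative Snap23 had 19.8 ± 0.574 CPM in PTHrP, against 21.0 ± 1.82 CPM in DsRed (SD, n = 3 each), with overlapping groups and a log2 fold change of -0.09.

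The syntaxins, the other membrane partner, had small values in both directions. Stx3, which had the highest level per length of the 3 syntaxins among the 37 genes and is known in beta cells for newcomer granules, had 136, 152 and 135 CPM in PTHrP, against 129, 127 and 143 CPM in DsRed. The groups overlapped, because DsRed replicate 3 lay among the PTHrP libraries, and the log2 fold change was 0.08 (95% interval -0.07 to 0.23). Stx1a, the syntaxin of docked granules, had a log2 fold change of -0.02 (-0.21 to 0.18). Stx4a, which encodes syntaxin 4, a further plasma membrane syntaxin used in insulin release, had 0.05 (-0.19 to 0.29).

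The granule SNAREs had overlapping groups and values near 0. Vamp3, cellubrevin, had 143, 165 and 149 CPM in PTHrP, against 156, 153 and 152 CPM in DsRed. The DsRed libraries lay inside the range of the PTHrP libraries, and the log2 fold change was -0.01 (95% interval -0.15 to 0.13). Vamp2, synaptobrevin 2, the main VAMP of insulin granules, had -0.02 (-0.17 to 0.13). Vamp8, a VAMP of endosomes and newcomer granules, had 0.06 (-0.15 to 0.27).

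The factors that assemble SNAREs and prime granules held the members with the widest spread. Stxbp2, which encodes the syntaxin chaperone Munc18-2, had 80.1, 75.5 and 74.9 CPM in PTHrP, against 71.0, 69.6 and 67.0 CPM in DsRed. Every PTHrP library lay above every DsRed library. Stxbp2 had a log2 fold change of 0.15 (SE 0.06, 95% interval 0.01 to 0.29), with an unadjusted p of 0.0333 and an adjusted p of 0.510 in the same edgeR fit. Its value lay between 0.12 and 0.17 in the 15 alternatives, with an unadjusted p under 0.05 in 10 of them and an adjusted p of 0.225 to 0.949. The priming factor Unc13a, Munc13-1, had -0.09 (-0.25 to 0.06), and its relative Unc13b had -0.16 (-0.47 to 0.15). Exons of Unc13a overlap over 495 bases those of Colgalt1 on the opposite strand, a gene at 106 CPM in PTHrP, against 97.6 CPM in DsRed, and without strand such reads cannot be assigned.

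Cplx2 and Cadps2, singled out after their values were seen, turned on PTHrP replicate 2. Complexins clamp and assist the assembled SNARE complex, and Cplx2 had 70.7, 34.4 and 67.0 CPM in PTHrP, against 70.4, 69.3 and 69.1 CPM in DsRed. Replicate 2 was the low one, and PTHrP replicates 1 and 3 lay close to the DsRed libraries, 1 above and 1 below all of them. Cplx2 thus had a log2 fold change of -0.28 (95% interval -0.98 to 0.42, adjusted p = 0.834 in the edgeR fit), which was -0.01 without PTHrP replicate 2. Cadps2, a CAPS protein that primes dense-core granules, had 30.5, 65.5 and 33.8 CPM in PTHrP, against 24.2, 26.3 and 39.2 CPM in DsRed. Here replicate 2 was the high one, and DsRed replicate 3 lay above the other DsRed libraries and above PTHrP replicates 1 and 3. The log2 fold change of 0.53 (-0.43 to 1.50, adjusted p = 0.751) moved to 0.11 when PTHrP replicate 2 was left out, and to 0.78 when DsRed replicate 3 was. Neither relative went along with it, as Cplx1 had a log2 fold change of 0.02 (-0.33 to 0.36) and Cadps, the main CAPS gene of the pair by level per length, had 0.00 (-0.14 to 0.13). Doc2b, a calcium-binding priming protein, was near the floor at 0.442 ± 0.189 CPM in PTHrP, against 0.340 ± 0.170 CPM in DsRed (SD, n = 3 each).

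PTHrP replicate 2 was the lowest or the highest of the 6 libraries for 22 of the 37 genes, or 59.5%, against 46.4% of all genes tested. It was lowest for 13 and highest for 9. At a mean log2 CPM of 1 or more the shares were 60.6% of 33 and 53.7% of all. The same library was low in the beta cell factor Mafa, with 804 CPM beside 1406 and 1319 CPM in PTHrP replicates 1 and 3, against 1388 to 1448 CPM in DsRed. The other beta cell markers went both ways. Among the PTHrP libraries, replicate 2 was the lowest for Pdx1, Nkx6-1 and Slc30a8. It was the highest of them for Ins1 (6669 CPM beside 5430 and 5789), Ins2, Iapp, Slc2a2, G6pc2 and Ucn3. The part of PTHrP replicate 2 in the exocytosis values beyond the fits without it was not tested.

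**Figure D3:**
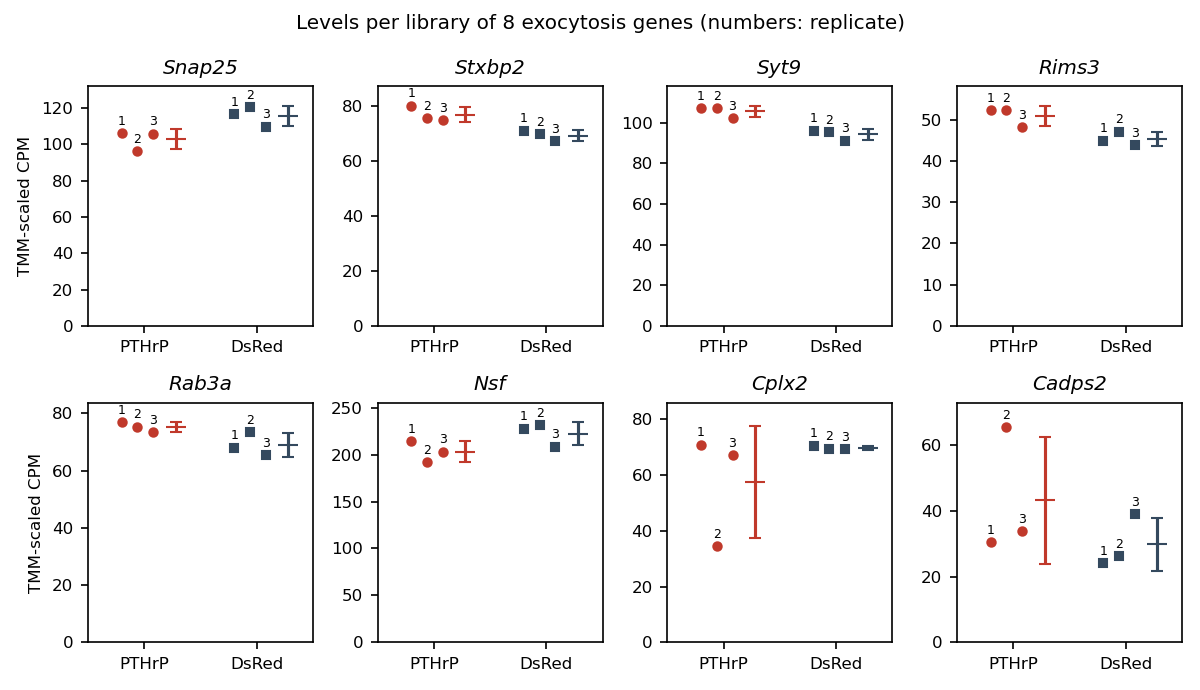
TMM-scaled CPM in each library (numbered points) with the mean and SD of each group (bars, n = 3), PTHrP left and DsRed right, for 8 exocytosis genes with axes from 0. Snap25 lies lower and Stxbp2, Syt9, Rims3 and Rab3a higher in every PTHrP library, Nsf overlaps, and in Cplx2 and Cadps2 replicate 2 of PTHrP stands alone at 34.4 and 65.5 CPM.

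The disassembly factors had overlapping groups. Napa, alpha-SNAP, had 673, 640 and 677 CPM in PTHrP, against 658, 660 and 618 CPM in DsRed. The log2 fold change of this gene, whose promoter held the cyclic AMP element, was 0.04 (95% interval -0.08 to 0.15). Nsf, the ATPase that alpha-SNAP recruits, had 214, 192 and 203 CPM in PTHrP, against 227, 231 and 209 CPM in DsRed. The groups overlapped only through DsRed replicate 3, which lay below PTHrP replicate 1, and the log2 fold change was -0.13 (-0.27 to 0.01, unadjusted p = 0.0623 and adjusted p = 0.585 in the edgeR fit).

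Of the synaptotagmins that act as calcium sensors, Syt9 stood apart in its libraries and had the smallest p of the 37 genes. Syt9 had 107, 107 and 102 CPM in PTHrP, against 96.1, 95.5 and 91.3 CPM in DsRed. Every PTHrP library lay above every DsRed library. For Syt9 this gave a log2 fold change of 0.16 (SE 0.06, 95% interval 0.04 to 0.29), with an unadjusted p of 0.0159 and an adjusted p of 0.427 in the edgeR fit. The value lay between 0.14 and 0.18 in the 15 alternatives, with an unadjusted p under 0.05 in all 15 and an adjusted p of 0.214 to 0.949. Syt7, the other sensor with a known part in insulin secretion, had 92.5, 65.0 and 84.2 CPM in PTHrP, against 88.7, 95.2 and 90.1 CPM in DsRed. Replicate 2 was again the low PTHrP library, and the log2 fold change of -0.18 (-0.43 to 0.07) was -0.05 without it. Syt5 had 0.03 (-0.23 to 0.29), and Syt1, the sensor of synaptic vesicles, had 0.07 (-0.22 to 0.36) at 6.79 ± 0.0637 CPM in PTHrP, against 6.46 ± 0.915 CPM in DsRed (SD, n = 3 each).

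The synaptotagmins that bind calcium weakly or not at all were at high levels. Syt13, an atypical member, had 1241, 1124 and 1194 CPM in PTHrP, against 1159, 1183 and 1104 CPM in DsRed, with overlapping groups and a log2 fold change of 0.05 (95% interval -0.07 to 0.17). Syt4, known from mouse beta cells as a gene of their maturation, had 138, 159 and 134 CPM in PTHrP, against 157, 168 and 150 CPM in DsRed. PTHrP replicate 2 lay among the DsRed libraries and the other PTHrP libraries below them. The log2 fold change was -0.14 (-0.31 to 0.02, unadjusted p = 0.0879 and adjusted p = 0.625 in the edgeR fit). Without PTHrP replicate 2 it was -0.22 (adjusted p = 0.0858), the smallest adjusted p of any of the 37 genes in the 16 fits. Syt11, its close relative, had -0.05 (-0.20 to 0.09). Exons of Syt4 overlap over 566 bases those of the opposite-strand gene Gm26658, which was at 0.162 CPM in PTHrP, against 0.345 CPM in DsRed.

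Of the Rab GTPases on the granule, Rab3a had groups that only just missed overlap. Rab3a had 76.9, 75.4 and 73.5 CPM in PTHrP, against 68.0, 73.4 and 65.5 CPM in DsRed. PTHrP replicate 3 and DsRed replicate 2 were level to within 0.1 CPM, and the groups overlapped with DESeq2's scaling. The log2 fold change was 0.13 (95% interval -0.02 to 0.27, unadjusted p = 0.0810 and adjusted p = 0.616 in the edgeR fit). Rab27a, which recruits granuphilin to the insulin granule, had 113, 90.5 and 119 CPM in PTHrP, against 124, 124 and 112 CPM in DsRed. The groups overlapped, PTHrP replicate 2 was the lowest, and the log2 fold change of -0.16 (-0.37 to 0.05) was -0.05 without that library.

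The remaining Rab3 genes had negative values with overlapping groups. Rab3c had 17.3, 14.8 and 16.2 CPM in PTHrP, against 18.4, 17.1 and 17.4 CPM in DsRed, and its groups overlapped by PTHrP replicate 1 alone, with a log2 fold change of -0.13 (-0.33 to 0.08). Rab3b had -0.04 (-0.21 to 0.14) and Rab3d -0.02 (-0.16 to 0.13). Rab27b, with 12 to 48 counts a library, had 0.246 ± 0.0922 CPM in PTHrP, against 0.286 ± 0.209 CPM in DsRed (SD, n = 3 each).

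Among the genes listed as Rab effectors, Rims3 stood apart. Long RIM proteins tether granules at sites of calcium entry, whereas Rims3 encodes a short form that keeps only the C-terminal part. Rims3 had 52.3, 52.3 and 48.1 CPM in PTHrP, against 44.9, 47.1 and 43.8 CPM in DsRed. Every PTHrP library lay above every DsRed library, with a log2 fold change of 0.17 (SE 0.07, 95% interval 0.02 to 0.32), an unadjusted p of 0.0316 and an adjusted p of 0.504 in the edgeR fit. Over the 15 alternatives its unadjusted p was under 0.05 in 12, and the adjusted p ranged from 0.335 to 0.974. Rims2, the long RIM of beta cells, had 0.02 (-0.14 to 0.18), while Rims1, a neuronal RIM, had 0.49 (-0.33 to 1.30) at 0.866 ± 0.214 CPM in PTHrP, against 0.616 ± 0.280 CPM in DsRed (SD, n = 3 each).

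The effectors of the synaptotagmin-like family did not stand apart. Sytl4, granuphilin, which docks insulin granules through Rab27a, had 348, 350 and 336 CPM in PTHrP, against 373, 357 and 343 CPM in DsRed. The groups overlapped, and the log2 fold change was -0.05 (95% interval -0.17 to 0.06). Sytl5 had -0.03 (-0.27 to 0.21) and Sytl2 -0.26 (-1.16 to 0.64), the last at 0.550 ± 0.229 CPM in PTHrP, against 0.657 ± 0.250 CPM in DsRed (SD, n = 3 each).

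Set per length, in CPM per kilobase of annotated exon, the genes covered a wide range. Syt13 was at 315 ± 15.6 in PTHrP and 305 ± 10.8 in DsRed, and Napa at 175 ± 5.42 in PTHrP and 170 ± 6.32 in DsRed (SD, n = 3 each). Sytl4 came next, at 67.2 ± 1.49 in PTHrP and 69.8 ± 2.95 in DsRed. These 3 kept their order with the longest transcript as the length. Vamp3 at 52.7 ± 4.08 in PTHrP and 53.2 ± 0.592 in DsRed, and Vamp2 at 45.0 ± 2.69 in PTHrP and 45.6 ± 3.01 in DsRed, followed, but with the longest transcript Vamp2 lay above Vamp3. Rab3a and Rab3d, at 33.8 ± 0.781 and 30.4 ± 0.531 in PTHrP and 31.0 ± 1.82 and 30.7 ± 2.33 in DsRed, could not be ordered in DsRed beyond their spread. The lowest was Rab27b, at 0.0231 ± 0.00863 in PTHrP and 0.0268 ± 0.0195 in DsRed.

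Shares within families of paralogues count the family members among the 37 genes alone. They are of the family's summed CPM per kilobase, mean ± SD with n = 3 each, with no test. Rab27a made up 99.9% ± 0.0468 of the Rab27 pair in PTHrP and 99.9% ± 0.0702 in DsRed. Snap25 made up 76.7% ± 0.735 of its pair with Snap23 in PTHrP and 77.7% ± 1.26 in DsRed. Unc13a made up 83.3% ± 1.59 of its pair in PTHrP and 82.6% ± 1.48 in DsRed, and Stx3 61.5% ± 0.938 of the summed Stx1a, Stx3 and Stx4a in PTHrP and 60.3% ± 3.59 in DsRed.

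The shares by library in a few families, given without a test, show where the groups overlapped. Within a family the shares depend on each other, and no background over all genes is given for them. Among the calcium sensors, Syt9 held 51.2%, 58.2% and 54.2% in PTHrP and 52.0%, 48.6% and 50.3% in DsRed, which overlap. Syt7 held 23.4%, 18.7% and 23.7% in PTHrP and 25.5%, 25.7% and 26.4% in DsRed, which do not overlap, although its CPM did. Rab3a held 47.3%, 46.8% and 45.7% of the Rab3 family in PTHrP and 43.1%, 44.5% and 44.4% in DsRed, again without overlap, and Rab3d held 41.6%, 41.1% and 42.7% in PTHrP and 44.5%, 43.8% and 42.4% in DsRed, more than Rab3a in DsRed replicate 1. Cplx2 held 90.0%, 77.0% and 88.7% of the complexins in PTHrP and 88.6%, 88.2% and 89.5% in DsRed, the odd value being that of PTHrP replicate 2. In that library Cadps2 also held 54.3% of the CAPS pair, against 34.1% and 36.7% in the other PTHrP libraries and 30.4%, 30.8% and 40.3% in DsRed.

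**Figure D4:**
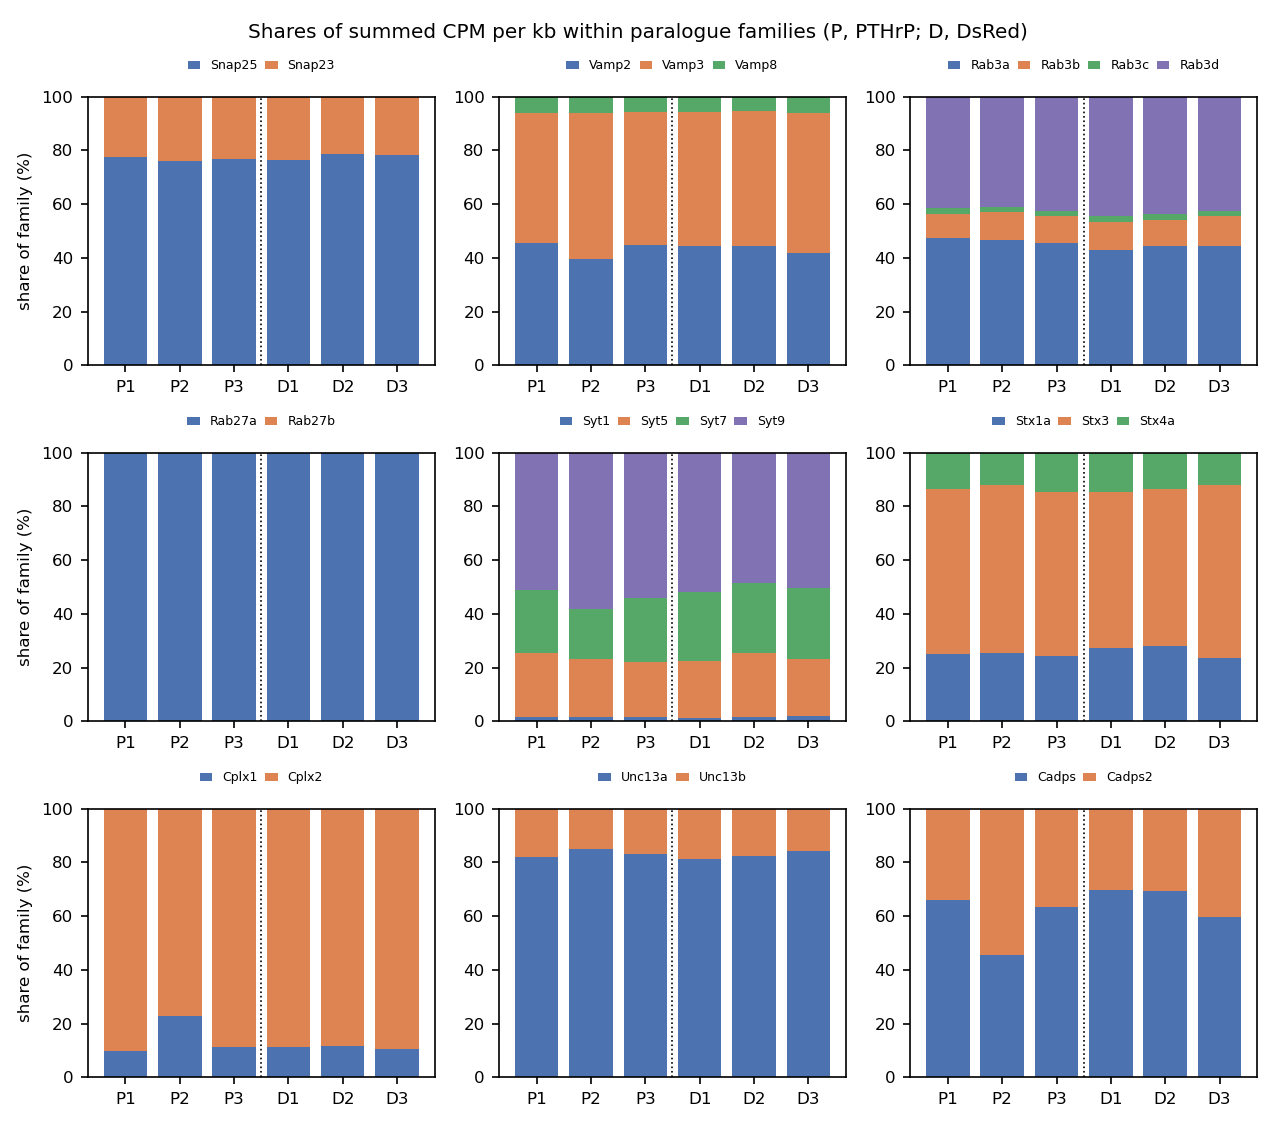
Share of each paralogue in its family's summed CPM per kilobase of exon, in percent, one stacked bar per library (PTHrP replicates 1 to 3 left of the dotted line, DsRed replicates 1 to 3 right of it). The bars of most families look much alike across the groups, and Cplx2 at 77.0% and Cadps2 at 54.3% in PTHrP replicate 2 stand out. In that library Syt7 held 18.7% and Syt9 58.2%. The shares of Syt7 and Rab3a did not overlap between the groups.

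A list of other genes for SNAREs, SNARE regulators, synaptotagmins, Rab effectors and exocyst subunits, which also holds SNAREs of the Golgi and of endosomes, had no gene past the edgeR threshold either. Of 87 such genes found, 83 were tested and 0 passed in the edgeR fit, while 13 had an unadjusted p under 0.05, 6 with positive and 7 with negative values, which is 15.7% against 8.90% of all genes tested (7.23% against 4.92% positive, and 8.43% against 3.98% negative). Of all genes with a mean log2 CPM of 1 or more, 12.6% had an unadjusted p under 0.05, and this list was not split by level. By DESeq2 1 gene of the list passed, Bet1. Bet1, a SNARE of transport from the endoplasmic reticulum to the Golgi, had 16.2, 17.3 and 17.6 CPM in PTHrP, against 23.8, 22.2 and 20.8 CPM in DsRed. Every PTHrP library lay below every DsRed library, and the difference on the log2 scale was -0.39 (SE 0.09, adjusted p = 0.252 in the edgeR fit and 0.0155 in DESeq2). Without PTHrP replicate 2, Bet1 (log2 fold change -0.39, edgeR adjusted p = 0.0481) and the exocyst subunit Exoc1 (0.30, adjusted p = 0.0389) passed.

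The next smallest p-values among these other genes came from different parts of the list. Snap47, a SNAP-25 relative, had 0.20 on the log2 scale (adjusted p = 0.367 in the edgeR fit), and Vamp7, a VAMP of late endosomes and lysosomes, had -0.23 (0.406). Rabgef1, an activator of the endosomal GTPase Rab5, had -0.19 (0.370). Rab26, a Rab of secretory granules, had 1.00 (0.353) at 0.987, 1.05 and 1.01 CPM in PTHrP, against 0.486, 0.468 and 0.568 CPM in DsRed. Syt10 had 1.03 (0.370) at 0.894, 0.905 and 1.21 CPM in PTHrP, against 0.532, 0.525 and 0.415 CPM in DsRed. In each of these 5 the groups did not overlap, and none passed in any of the 16 fits.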

How the data were processed

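The authors deposited raw counts per gene for 6 libraries, made with bcl2fastq, STAR and Subread featureCounts 2.0.3 on GRCm38, per the submitters' processing notes. Annotation release, strandedness and the handling of multiply mapped reads were not given in the sources used here. Of 55774 rows, 287 repeated an identifier with identical counts and were dropped, leaving 55487 genes. Groups and replicate numbers come from the library titles. Nothing says that replicates were separate cultures, so the p-values reflect spread between samples that could be technical. Every pair of libraries differed beyond sampling noise (chi-square per gene 8.91 to 69.4). Pairs with PTHrP replicate 2 gave 55.9 to 69.4, and pairs without it 8.91 to 36.6.

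Genes were filtered with filterByExpr (21141 kept), scaled with TMM factors and tested with edgeR 4.0.16 (R 4.3.3; quasi-likelihood, robust, group term alone, all 6 libraries, two-sided). The biological coefficient of variation was 17.7%. The SE, and the 95% intervals made from it, are approximate, as the fold change divided by the root of F. Lengths, positions and exon overlaps come from GENCODE M21 (GRCm38). The scripts were tested on simulated counts.

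Genes given with values in every library are those whose groups do not overlap, the 10 with the smallest p and the one with the highest level per length in each role. Members, lists and motifs were chosen with earlier results of these data known. Alternatives were DESeq2 1.42.0, limma-voom (limma 3.58.1), other scaling (upper-quartile or RLE factors, or library sizes alone), other filters (none, or at least 1 CPM in 3 libraries), the replicate number as a block, Pthlh left out of the library sizes, each library left out in turn, and the longest transcript as the length.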

Additional observations from a re-analysis of the deposited data

How the results depend on the processing

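None of the 37 exocytosis genes passed in any of the 16 fits, although 33 of them were tested in all 16. The count of all genes passing was 9, and it was 14 with library sizes alone, 220 with no filter on low counts, 136 with DESeq2, and 2 to 213 over the fits that left out 1 library, the highest without PTHrP replicate 2. The count of exocytosis genes with an unadjusted p under 0.05 was 1 to 5 when 1 library was left out, being 1 (Syt9) without DsRed replicate 1, and the count without overlap was 4 to 15, since smaller groups overlap less. Leaving out PTHrP replicate 1, PTHrP replicate 2 or DsRed replicate 3 gave 11, 10 and 15 in turn. The matching shares of all genes in the alternative fits are not given here. Counts of the 37 in those fits therefore say nothing about how they stand against the background. The median log2 fold change of the 37 was -0.018 to 0.018 over the fits that left out 1 library, the highest without DsRed replicate 2. Of the related trafficking genes 1 passed with no filter and 1 with DESeq2, both times Bet1, and 0 to 2 when 1 library was left out. For 16 of the 37 genes, none with an unadjusted p under 0.05, the log2 fold change took the opposite sign when some library was left out. Their ranges over these fits were -0.084 to 0.020 for Stx1a, -0.027 to 0.124 for Stx4a, -0.071 to 0.034 for Vamp2, -0.072 to 0.034 for Vamp3, -0.098 to 0.096 for Cplx1, -0.030 to 0.028 for Cadps and -0.00017 to 0.866 for Doc2b. Those of Syt1 were -0.017 to 0.188, of Syt5 -0.100 to 0.137, of Syt11 -0.117 to 0.011, of Rab3b -0.078 to 0.0036, of Rab3d -0.077 to 0.028, of Rab27b -0.563 to 0.557, of Rims2 -0.015 to 0.068, of Sytl2 -0.621 to 0.090 and of Sytl5 -0.099 to 0.030. Cadps was also positive with library sizes alone (0.0032) and with no filter (0.0046). Among the related genes named, the ranges crossed 0 for Gosr1 (-0.027 to 0.067), Ykt6 (-0.052 to 0.066) and Stx18 (-0.037 to 0.048), and Ykt6 was -0.0043 with upper-quartile factors and -0.0057 with at least 1 CPM in 3 libraries. The replicate numbers were not taken to pair the samples, since same-numbered libraries deviated together with correlations of 0.17, -0.06 and -0.03. With the replicate block 7 of all genes, 0 of the 37 and 0 of the related genes passed, and 5 of the 37 had an unadjusted p under 0.05. Doc2b, Rab27b, Rims1 and Sytl2 were under 1 CPM in the mean of both groups, and the cause of the shifts was not tested for any gene.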

Other observations

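Among SNAREs of transport between the endoplasmic reticulum and the Golgi, which were chosen for this paragraph after Bet1 had been seen, negative log2 fold changes were found beside values near 0. Stx5a, the syntaxin of this step, had 114 ± 6.08 CPM in PTHrP, against 131 ± 9.68 CPM in DsRed (SD, n = 3 each), which gave -0.20 on the log2 scale with an adjusted p of 0.428 in the edgeR fit. Sec22b had 121 ± 0.549 CPM in PTHrP, against 132 ± 6.17 CPM in DsRed, or -0.13 on the log2 scale (adjusted p = 0.548). In both genes every PTHrP library lay below every DsRed library. That was so for 14.5% of the 83 related genes tested, against 7.88% of all genes tested. Gosr2 had -0.09 (0.734), Gosr1 0.02 (0.959), Ykt6 0.00 (0.988) and Stx18 -0.01 (0.981), all with overlapping groups.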
